A study of Mus musculus with 16 samples.

Results

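The 10 genes described here encode the costimulatory arm of osteoclast formation that signals through the immunoreceptor tyrosine-based activation motif (ITAM). They are the adaptors Tyrobp and Fcer1g, the receptors Trem2, Oscar and Sirpb1a, the kinases Syk, Btk and Tec, the scaffold Blnk and the phospholipase Plcg2. They were taken by gene symbol from a table of 21936 genes. All 10 were present and all 10 were among the 12093 genes with enough counts to be tested. RNA was sequenced from 16 osteoclast cultures in 4 groups of 4. CD11b-positive cells from the bone marrow of C57BL/6J mouse lines were kept in M-CSF at 50 ng/ml for 3 days, and RANKL at 20 ng/ml was then added. RNA was taken at the appearance of the first mature osteoclasts, on day 3 to 5. Which day applies to which culture was not stated. The groups were wild type (WT), mice lacking Ptprc (Ptprc KO), mice with an internal tandem duplication in Flt3 (FLT3 ITD), and mice with both changes (FLT3 ITD Ptprc KO, called the double mutant below). CD45, the product of Ptprc, is the abundant transmembrane phosphatase of leukocytes. The duplication in FLT3, frequent in acute myeloid leukaemia, keeps this kinase receptor active without ligand. All 4 groups shared the C57BL/6J background and the culture protocol. The labels do not state whether the replicates came from separate animals, so a p-value speaks only of the spread among these cultures, which may be technical.

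RANKL alone does not make an osteoclast. A second signal comes from receptors such as OSCAR and TREM2, which have short tails and borrow the ITAM of an adaptor in the membrane. TREM2 and SIRP-beta pair with DAP12, the product of Tyrobp, and OSCAR pairs with the Fc receptor gamma chain, the product of Fcer1g. Src-family kinases phosphorylate the tyrosines of the ITAM, and CD45 is known to act on Src-family kinases by removing an inhibitory phosphate. SYK then docks on the phosphorylated motif and phosphorylates the scaffold BLNK, on which BTK and TEC activate phospholipase C gamma 2. The calcium that follows activates calcineurin and NFATc1, the master regulator of the lineage. Mice that lack both adaptors develop osteopetrosis, and loss of TYROBP or TREM2 in humans causes a disease with bone cysts.

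The motif that gives the pathway its name was looked for in the coding transcripts of all 10 genes, as a tyrosine with leucine or isoleucine at the third residue after it, and the same again after a spacer. It was found in 2 of the 10, the adaptors, and each copy is encoded by 45 bases. The coding sequences are shown because every other member acts through or after them. Capitals mark the codons of the paired tyrosines, at residues 92 and 103 of the 114-residue product of Tyrobp and at residues 65 and 76 of the 86-residue product of Fcer1g (GENCODE M21 transcripts, 5′ to 3′).
Tyrobp: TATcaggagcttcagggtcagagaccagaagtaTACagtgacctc
Fcer1g: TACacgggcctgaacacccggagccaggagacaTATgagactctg

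Each library held between 24211724 and 35773313 counts. Ptprc, the targeted gene, stood at 454 ± 28.5 CPM in WT and 38.7 ± 6.45 CPM in Ptprc KO (SD, n = 4; CPM are counts scaled to a common library size with TMM factors). Its level was 401 ± 129 CPM among FLT3 ITD cultures and 64.8 ± 15.3 CPM among double mutants (SD, n = 4), so every library labelled as a knockout lay under every other. Flt3 had 1 to 41 counts per library, which does not check the knock-in. The labelled cell type was checked against 12 osteoclast markers, all of which were detected, with summed levels of 9683 to 68241 CPM per library. The mean log2 CPM of these 12 genes, called the osteoclast marker score below, was 9.75 ± 0.16 in WT, 10.05 ± 0.70 for Ptprc KO, 9.95 ± 0.84 for FLT3 ITD and 8.43 ± 0.96 for double mutants (SD, n = 4). FLT3 ITD replicate 4 lay low for its group at 8.70, and double-mutant replicate 3 lay high for its group at 9.86. Counts of FLT3 ITD replicates 1 and 3 were much closer than those of any other pair (a chi-square of 2.76 per gene, while the next closest pair had 13.0). FLT3 ITD replicate 2 had values that ran with gene length (rho = -0.46, taken across genes, so not over independent replicates). FLT3 ITD replicate 4, on which values of Trem2, Oscar, Blnk and Sirpb1a turn, had a weaker trend of the same sign (rho = -0.18), and the other 14 libraries lay between 0.035 and 0.18; the part of length in those values was not tested. In bulk RNA, fewer cells of a type and less RNA per cell cannot be told apart.

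None of the 10 genes passed the test in any comparison of genotypes. Oscar had the widest range of the members, from 11.7 to 386 CPM over the 16 libraries (33.0-fold). Trem2 ran from 41.7 to 587 CPM (14.1-fold) and Sirpb1a from 0.743 to 9.86 CPM (13.3-fold). At the other end, Btk stayed between 121 and 146 CPM (1.21-fold), and only 0.215% of all tested genes had a smaller SD of log2 CPM. The receptors therefore held the wide ranges and the kinases the narrow ones, with the adaptors and effectors between 1.96-fold (Tyrobp) and 3.19-fold (Blnk).

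**Figure D1:**
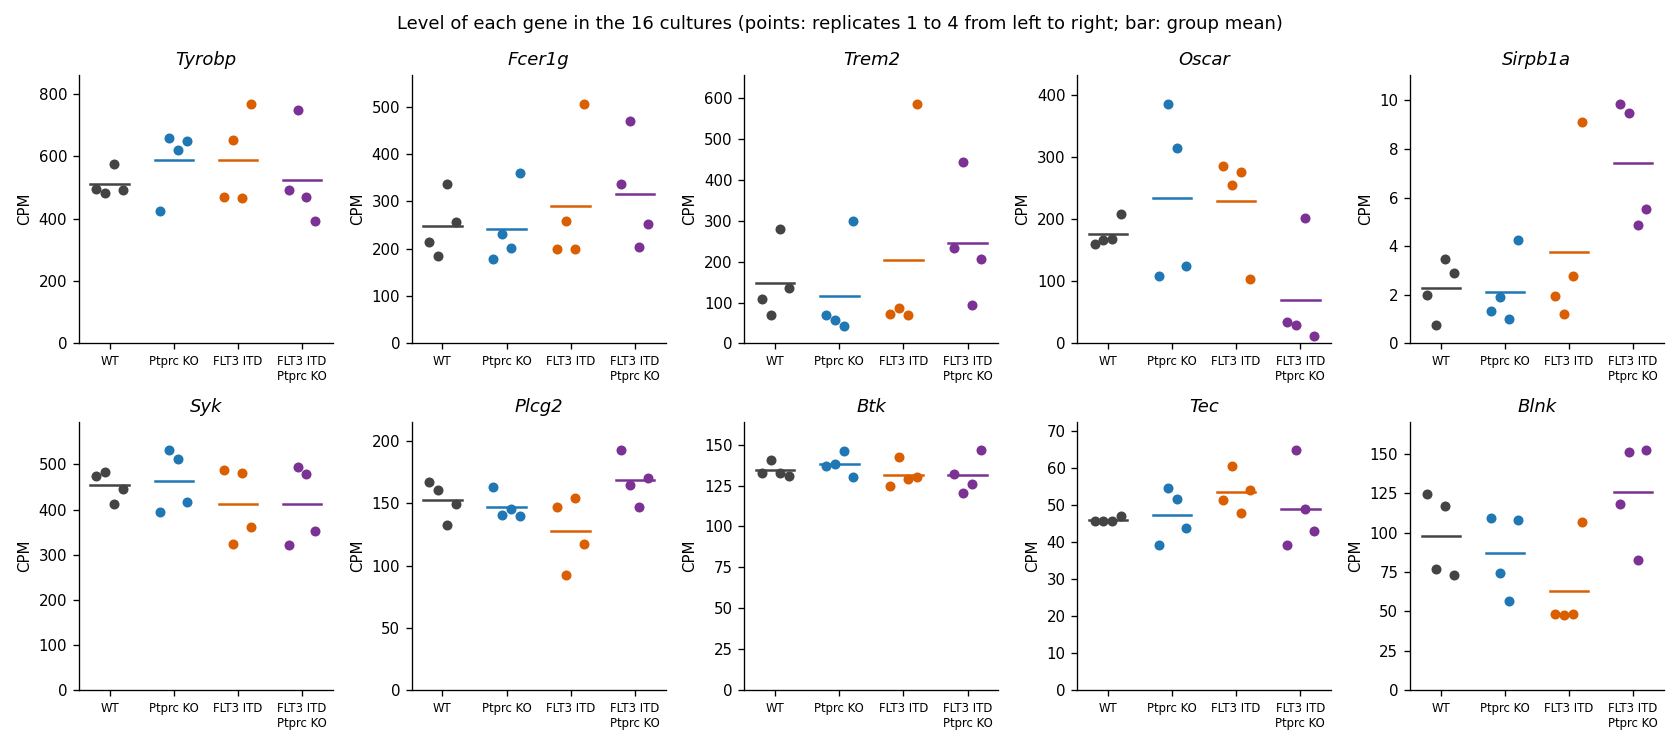
Level of each of the 10 genes in CPM (vertical axes start at 0) in the 16 cultures. Points are replicates 1 to 4 of a genotype from left to right and bars are group means; Oscar runs from 11.7 to 386 CPM and Btk from 121 to 146 CPM, and FLT3 ITD replicate 4 stands apart from its group for Trem2, Oscar and Blnk.

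Tyrobp encodes DAP12, the adaptor of TREM2 and many other myeloid receptors (ENSMUSG00000030579, protein-coding; GRCm38 chromosome 7, 30413760 to 30417585, plus strand). In replicates 1 to 4 it stood at 494, 482, 576 and 491 CPM in WT and at 424, 658, 621 and 647 CPM in Ptprc KO. The FLT3 ITD cultures held 469, 651, 467 and 769 CPM, and the double-mutant cultures 491, 749, 469 and 392 CPM. The groups overlapped, and the highest and lowest cultures of all were both in groups that carry FLT3 ITD. Group means lay between 511 ± 43.7 CPM in WT and 589 ± 148 CPM in FLT3 ITD (SD, n = 4). The largest log2 fold change of a pair of genotypes was 0.21 (SE 0.22, 95% interval -0.27 to 0.68, edgeR adjusted p = 0.766), for FLT3 ITD against WT. Replicates 2 and 4, whose trends with gene length were negative, held the higher FLT3 ITD values. With limma on log2(TPM + 1), where TPM are levels per gene length, this change was -0.06, beside a median of -0.21 over all genes. The part of length was not tested.

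Fcer1g encodes the Fc receptor gamma chain, the ITAM adaptor of OSCAR and of activating Fc receptors (ENSMUSG00000058715, protein-coding; chromosome 1, 171229572 to 171234365, minus strand). It lies 33.1 Mb from Ptprc on the same chromosome. WT replicates 1 to 4 held 213, 184, 337 and 257 CPM, and Ptprc KO replicates 179, 231, 201 and 359 CPM. FLT3 ITD replicates held 199, 258, 199 and 506 CPM, and double-mutant replicates 336, 470, 204 and 252 CPM. The groups overlapped, and the highest culture of all was FLT3 ITD replicate 4. The means ran from 242 ± 80.7 CPM in Ptprc KO to 316 ± 116 CPM in the double mutant (SD, n = 4), a log2 fold change of 0.38 (SE 0.34, 95% interval -0.37 to 1.13, edgeR adjusted p = 0.522).

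Trem2 encodes a lipid and lipoprotein receptor of macrophages and osteoclast precursors that signals through DAP12 (ENSMUSG00000023992, protein-coding; chromosome 17, 48346401 to 48354147, plus strand). In WT it stood at 108, 69.0, 281 and 136 CPM, and in Ptprc KO at 69.6, 57.7, 41.7 and 299 CPM. FLT3 ITD cultures had 71.4, 87.0, 69.4 and 587 CPM, and double mutants 233, 445, 94.0 and 207 CPM. A single culture set the mean in each of the first 3 groups, and 3 of 4 double-mutant cultures lay above all but the highest culture of every other group. Group means were 149 ± 92.4, 117 ± 122, 204 ± 256 and 245 ± 146 CPM in WT, Ptprc KO, FLT3 ITD and the double mutant (SD, n = 4). With this spread the double mutant against FLT3 ITD gave a log2 fold change of 0.26 (SE 0.79, 95% interval -1.47 to 2.0, edgeR adjusted p = 0.847). Without FLT3 ITD replicate 4 the same value was 1.69 (edgeR adjusted p = 0.0978), and with FLT3 ITD replicates 1 and 3 summed into 1 library it was -0.02 (edgeR adjusted p = 0.992).

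Oscar encodes the osteoclast-associated receptor, a collagen receptor that signals through the Fc receptor gamma chain (ENSMUSG00000054594, protein-coding; chromosome 7, 3609813 to 3616157, minus strand). WT cultures held 160, 166, 167 and 209 CPM, and Ptprc KO cultures 108, 386, 314 and 124 CPM. FLT3 ITD cultures held 285, 255, 275 and 103 CPM, and double-mutant cultures 35.0, 29.8, 201 and 11.7 CPM. Double-mutant replicates 1, 2 and 4 were the 3 lowest of the 16 cultures, and replicate 3 lay within the WT range. The mean was 69.4 ± 88.4 CPM in the double mutant, against 229 ± 85.3 CPM in FLT3 ITD, 233 ± 138 CPM in Ptprc KO and 175 ± 22.4 CPM in WT (SD, n = 4). The log2 fold change of the double mutant was -1.72 against FLT3 ITD (SE 0.70, edgeR adjusted p = 0.153) and -1.75 against Ptprc KO (SE 0.70, edgeR adjusted p = 0.255). Against WT it was -1.34 (SE 0.69, edgeR adjusted p = 0.601), and the interaction, the FLT3 ITD effect in knockout cultures minus that in cultures with Ptprc, was -2.14 (SE 0.97, edgeR adjusted p = 0.276). Double-mutant replicate 3 decided these calls. Without it Oscar passed in all 4, at -3.17 (edgeR adjusted p = 0.0223), -3.19 (0.0146), -2.78 (0.0374) and -3.58 (0.0463) in the same order, where edgeR called 10.8%, 6.45%, 0.681% and 0.459% of all genes.

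Sirpb1a encodes a signal-regulatory protein of the beta type, an activating partner of DAP12 (ENSMUSG00000095788, protein-coding; chromosome 3, 15371653 to 15426520, minus strand). Its level is uncertain, since 40.39% of the 50-base stretches of its transcripts also occur in other genes, mostly its neighbours in sequence Sirpb1c and Sirpb1b, and the counting of such reads was not stated. It was the scarcest member, with 27 to 322 counts per library. WT cultures held 2.01, 0.743, 3.47 and 2.91 CPM, and Ptprc KO cultures 1.32, 1.93, 1.02 and 4.25 CPM. FLT3 ITD cultures held 1.94, 1.21, 2.78 and 9.12 CPM, and double-mutant cultures 9.86, 9.48, 4.85 and 5.55 CPM. All 4 double-mutant cultures lay above all 8 cultures with normal Flt3, while FLT3 ITD replicate 4 lay within the double-mutant range. The mean was 7.44 ± 2.60 CPM in the double mutant, against 2.28 ± 1.19 CPM in WT, 2.13 ± 1.46 CPM in Ptprc KO and 3.76 ± 3.63 CPM in FLT3 ITD (SD, n = 4). The log2 fold change was 1.80 against Ptprc KO (SE 0.64, edgeR adjusted p = 0.236) and 1.71 against WT (SE 0.64, edgeR adjusted p = 0.566). Against FLT3 ITD it was 0.98 (SE 0.62, edgeR adjusted p = 0.312), and 1.90 without FLT3 ITD replicate 4 (edgeR adjusted p = 0.0438), a fit in which edgeR called 14.7% of all genes.

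Oscar and Trem2 tended to run in opposite directions between cultures (Pearson r = -0.627, and -0.584 relative to genotype means, given without a test). The ratio of their counts within a library is free of library scaling. It is not free of a trend with gene length, whose part was not tested. Oscar counts per Trem2 count were 1.48, 2.40, 0.596 and 1.53 in WT and 1.56, 6.69, 7.54 and 0.416 in Ptprc KO. FLT3 ITD libraries had ratios of 3.99, 2.93, 3.96 and 0.175, and double mutants 0.150, 0.0670, 2.14 and 0.0566. Trem2 counts exceeded Oscar counts in 1 culture each of WT, Ptprc KO and FLT3 ITD and in 3 of 4 double-mutant cultures. The 250 bases before the start of each gene are shown because these receptors had the widest ranges of the 10 genes. Capitals mark matches, on either strand, to the words TGGAAA (NFAT), GAGGAAG (PU.1), TGANTCA (AP-1) and CACGTG (E-box), read 5′ to 3′ on the gene's strand (RefSeq promoters, GRCm38.p6).
Oscar, chr7:3616158-3616407, minus strand: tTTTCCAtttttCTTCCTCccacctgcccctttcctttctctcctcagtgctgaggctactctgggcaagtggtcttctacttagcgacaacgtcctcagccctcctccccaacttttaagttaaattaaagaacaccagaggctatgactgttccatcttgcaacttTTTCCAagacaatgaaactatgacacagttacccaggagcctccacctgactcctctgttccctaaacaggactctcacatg
Trem2, chr17:48346151-48346400, plus strand: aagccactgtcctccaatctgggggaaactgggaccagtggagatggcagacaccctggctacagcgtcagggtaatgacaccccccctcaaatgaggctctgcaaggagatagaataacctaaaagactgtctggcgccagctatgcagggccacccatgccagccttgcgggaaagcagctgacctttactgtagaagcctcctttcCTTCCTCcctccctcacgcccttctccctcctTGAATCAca
The Oscar window holds the NFAT word at 249 to 244 and 82 to 77 bases before the start and the PU.1 word at 238 to 232. The Trem2 window holds the PU.1 word at 41 to 35 bases and the AP-1 word at 9 to 3 bases before the start. Of 32536 promoters of this length, 18.6% hold the NFAT word, 10.7% the PU.1 word, 6.73% the AP-1 word and 6.04% the E-box, so a match is a description and not a binding site. Of the 9 members with a promoter in the RefSeq table, Plcg2 holds the E-box at 20 to 15 bases before the start, and Fcer1g, Sirpb1a, Syk, Btk, Tec and Blnk hold none of the 4 words in this window.

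Syk encodes the tyrosine kinase that docks on the phosphorylated ITAM (ENSMUSG00000021457, protein-coding; chromosome 13, 52583173 to 52648792, plus strand). It stood at 475, 482, 412 and 445 CPM in WT and 396, 531, 512 and 416 CPM in Ptprc KO. FLT3 ITD cultures had 487, 323, 481 and 362 CPM, and double mutants 323, 494, 478 and 353 CPM. The groups overlapped, and FLT3 ITD replicate 2, whose values ran with length, was among the lowest. All pairs of genotypes lay within a log2 fold change of -0.17 to 0.03 with an SE of 0.18. The double mutant against FLT3 ITD had a 95% interval of -0.39 to 0.38 (edgeR adjusted p = 0.987).

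Btk encodes a TEC-family kinase that activates phospholipase C gamma 2 (ENSMUSG00000031264, protein-coding; chromosome X, 134542336 to 134583570, minus strand). WT cultures held 133, 141, 133 and 131 CPM, and Ptprc KO cultures 137, 138, 146 and 131 CPM. FLT3 ITD cultures held 125, 143, 129 and 130 CPM, and double-mutant cultures 132, 121, 126 and 146 CPM. No culture stood apart, and the SD within a genotype was at most 11.2 CPM. The 95% intervals of its 5 pairwise log2 fold changes all lay between -0.27 and 0.24, which bounds any difference in Btk RNA more tightly than for the other members.

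Tec encodes the kinase that gives this family its name (ENSMUSG00000029217, protein-coding; chromosome 5, 72755716 to 72868483, minus strand). WT cultures held 45.6, 45.7, 45.6 and 46.9 CPM, and Ptprc KO cultures 39.3, 54.7, 51.5 and 43.9 CPM. FLT3 ITD cultures held 51.4, 60.5, 48.0 and 54.1 CPM, and double-mutant cultures 39.2, 64.8, 48.8 and 42.9 CPM. All 4 FLT3 ITD cultures lay above all 4 WT cultures in CPM, and the latter lay within 45.6 to 46.9 CPM. The highest FLT3 ITD culture was replicate 2, whose values ran with gene length. In deposited TPM, levels per gene length, these groups overlapped, at 40.8 to 45.3 in FLT3 ITD and 41.5 to 45.5 in WT. With limma on log2(TPM + 1) the change was -0.04, beside a median of -0.21 over all genes. The part of length was not tested. The mean was 53.5 ± 5.29 CPM in FLT3 ITD and 46.0 ± 0.66 CPM in WT (SD, n = 4), a log2 fold change of 0.22 (SE 0.15, edgeR adjusted p = 0.647).

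Blnk encodes the scaffold that brings BTK to phospholipase C gamma 2, known from B cells and also used by osteoclasts (ENSMUSG00000061132, protein-coding; chromosome 19, 40928927 to 40994535, minus strand). In WT it stood at 125, 76.9, 117 and 72.9 CPM, and in Ptprc KO at 109, 74.7, 56.4 and 108 CPM. FLT3 ITD cultures had 48.6, 47.7, 48.4 and 107 CPM, and double mutants 118, 151, 82.9 and 152 CPM. FLT3 ITD replicates 1 to 3 were the 3 lowest of the 16 cultures, and FLT3 ITD replicate 4 lay inside the range of the double mutant. Means were 62.9 ± 29.2 CPM in FLT3 ITD, 126 ± 32.9 CPM in the double mutant, 97.9 ± 26.8 CPM in WT and 87.0 ± 25.9 CPM in Ptprc KO (SD, n = 4). The log2 fold change of the double mutant against FLT3 ITD was 1.00 (SE 0.32, 95% interval 0.32 to 1.69, edgeR adjusted p = 0.115), and that of FLT3 ITD against WT was -0.64 (SE 0.31, edgeR adjusted p = 0.596). The interaction was 1.17 (SE 0.44, edgeR adjusted p = 0.263). The first of these passed with DESeq2 (0.98, adjusted p = 0.0407), where 8.14% of all genes were called. It also passed with edgeR without FLT3 ITD replicate 4 (1.39, adjusted p = 0.0270) and without double-mutant replicate 3 (1.16, adjusted p = 0.0414), and it missed in the other fits.

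Plcg2 encodes phospholipase C gamma 2, which releases the calcium that drives NFATc1 (ENSMUSG00000034330, protein-coding; chromosome 8, 117498291 to 117635142, plus strand). WT cultures held 167, 161, 133 and 150 CPM, and Ptprc KO cultures 163, 141, 145 and 140 CPM. FLT3 ITD cultures held 147, 92.1, 154 and 117 CPM, and double-mutant cultures 193, 165, 147 and 170 CPM. FLT3 ITD replicate 2, the culture with values that ran with gene length, was lowest of all. The mean was 128 ± 28.5 CPM in FLT3 ITD and 169 ± 18.9 CPM in the double mutant (SD, n = 4), a log2 fold change of 0.40 (SE 0.15, 95% interval 0.07 to 0.73, edgeR adjusted p = 0.142). Without FLT3 ITD replicate 2 it was 0.27 (edgeR adjusted p = 0.346), and how far the length trend enters was not tested beyond this.

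The genotype comparisons ask whether CD45 loss, the active FLT3 or their combination alters this pathway. In FLT3 ITD against WT, edgeR called 0 of 10 members, as against 0.0413% of all genes, and 0 of 10 at an unadjusted p under 0.05 (8.45% of all genes). In Ptprc KO against WT it called 0 of 10 (0.0331% of all genes), and 0 of 10 unadjusted (0.843%). In the double mutant against FLT3 ITD it called 0 of 10 (0.00827%), with Oscar, Plcg2 and Blnk at an unadjusted p under 0.05, 3 of 10 beside 25.7% of all genes. In the double mutant against Ptprc KO it called 0 of 10 (0.091%), with Oscar and Sirpb1a unadjusted, 2 of 10 beside 17.8%. In the double mutant against WT it called 0 of 10 (0.108%), with Sirpb1a unadjusted, 1 of 10 beside 7.89%. The interaction gave 0 of 10 (0.00827%), with Oscar and Blnk unadjusted, 2 of 10 beside 17.5%. A single test for any difference among the 4 genotypes gave 0 of 10 (0.223%), with Sirpb1a and Blnk unadjusted, 2 of 10 beside 12.5%. DESeq2 called Blnk in the double mutant against FLT3 ITD and no member in the other 6 tests. The 3 comparisons of the double mutant share its libraries, so they are not separate evidence, and the shares of members stood near those of all genes throughout.

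Ranges that did not overlap were as scarce among the members as elsewhere. Tec was the one member of 10 whose CPM, though not its TPM, separated FLT3 ITD from WT. In CPM, 2.89% of all genes separated upward, 3.2% downward and 6.09% in either direction. Sirpb1a was the one that separated the double mutant from Ptprc KO (3.48% of all genes upward, 2.84% downward, 6.33% either way) and from WT (2.94% upward, 2.56% downward, 5.5% either way). No member separated Ptprc KO from WT (1.41% of all genes either way) or the double mutant from FLT3 ITD (4.95% upward, 3.52% downward, 8.47% either way).

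**Figure D2:**
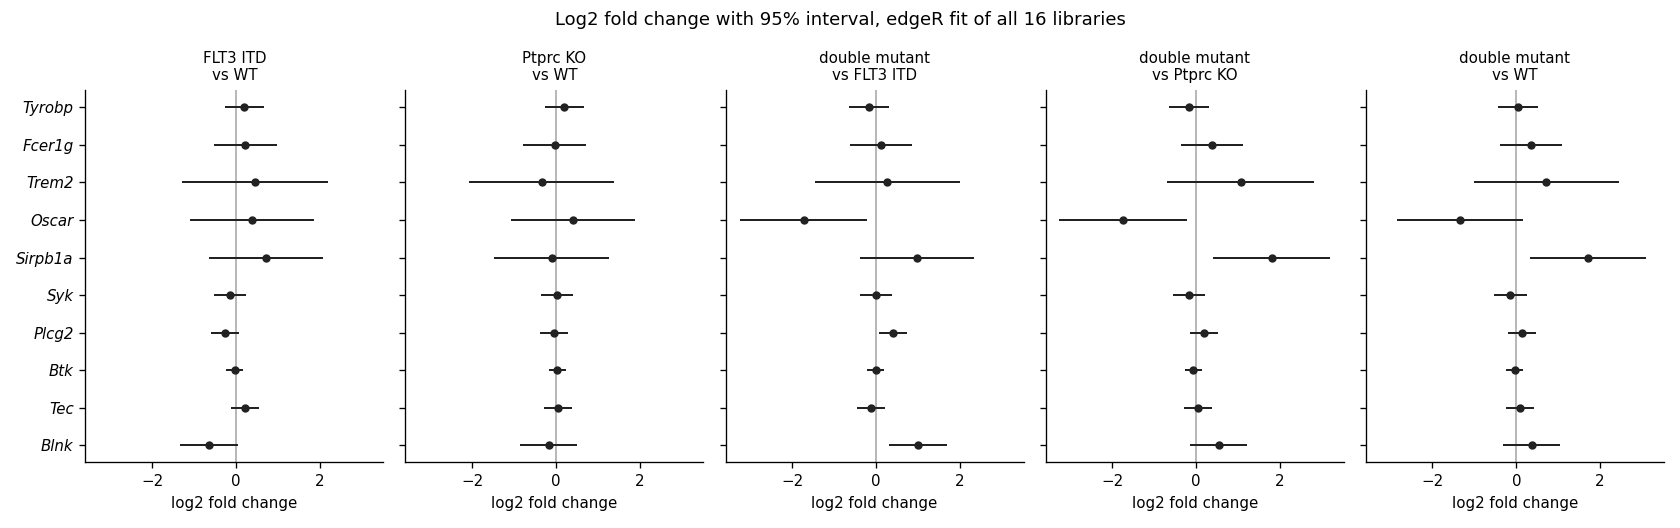
Log2 fold change of each gene (horizontal axis, points) with its 95% interval (lines) in the 5 comparisons of genotypes, from the edgeR fit of all 16 libraries. Oscar, Blnk and Plcg2 in the double mutant against FLT3 ITD, Oscar and Sirpb1a against Ptprc KO and Sirpb1a against WT have intervals that leave out 0 before adjustment, and none passed after it.

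The share of variance in log2 CPM that lay between genotypes was larger in 4 members than in the rest. It was 55.4% for Oscar, 47.5% for Sirpb1a, 47.1% for Blnk and 41.6% for Plcg2. The other 6 had 9.61% to 18.2%, and the median of all tested genes was 26.0%. Such a share lies above 0 even where genotype has no effect. None of the 4 passed the edgeR test for any difference among genotypes (adjusted p = 0.445, 0.365, 0.388 and 0.450 in the same order). For Trem2 the share was 18.2%, so most of its 14.1-fold range lay between cultures of the same genotype.

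Since cultures of the same genotype differed in how much osteoclast RNA they held, each member was set beside the osteoclast marker score over the 16 libraries. The score contains none of the members. Oscar ran with the score across cultures (Pearson r = 0.956, permutation p = 1e-05, the smallest that the resamples can give; 1.10e-04 after adjustment over 12081 genes; Spearman rho = 0.959, permutation p = 1e-05). Only 1.22% of all genes had an r as far from 0. Blnk ran against it (r = -0.825, permutation p = 7.00e-05, adjusted 4.51e-04; rho = -0.841, permutation p = 1.10e-04), as did Sirpb1a (r = -0.786, permutation p = 3.40e-04, adjusted 0.00154; rho = -0.785, permutation p = 6.20e-04). Trem2 also ran against it (r = -0.784, permutation p = 3.60e-04, adjusted 0.00161; rho = -0.809, permutation p = 2.90e-04), and so did Fcer1g (r = -0.630, permutation p = 0.00922, adjusted 0.0219; rho = -0.515, permutation p = 0.0441). These 5 of 10 members stood beside 49.8% of all genes past the same threshold (24.3% with a positive and 25.5% with a negative r), so the number is that of the background, and the score marks a difference between cultures that runs through the whole transcriptome.

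The remaining 5 members did not pass. Syk had r = 0.522 (permutation p = 0.0382, adjusted 0.0715; rho = 0.588, permutation p = 0.0188), and Plcg2 had r = -0.441 (permutation p = 0.0841, adjusted 0.138; rho = -0.462, permutation p = 0.0734). Tec had r = 0.234 (permutation p = 0.383, adjusted 0.477; rho = 0.524, permutation p = 0.0397). Btk had r = 0.182 (permutation p = 0.502, adjusted 0.591; rho = 0.179, permutation p = 0.504). Tyrobp had r = 0.031 (permutation p = 0.907, adjusted 0.932; rho = 0.074, permutation p = 0.789), so the DAP12 adaptor kept no relation to the score while its receptor Trem2 ran against it.

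The score was lowest in double-mutant replicates 1, 2 and 4 and FLT3 ITD replicate 4, so the relation was also read without them. Without the 2 libraries farthest from the median, double-mutant replicates 4 and 1, r was 0.958 for Oscar, -0.816 for Blnk, -0.747 for Sirpb1a, -0.869 for Trem2 and -0.761 for Fcer1g. For Btk r was 0.583 and for Tec -0.13, and neither was adjusted over all genes in this reading. Within the 12 libraries with a score over 9, it was 0.944 for Oscar (adjusted permutation p = 0.00163), -0.812 for Blnk (adjusted 0.0165) and -0.745 for Trem2 (adjusted 0.0197). There Sirpb1a (r = -0.418, adjusted permutation p = 0.304) and Fcer1g (r = -0.370, adjusted 0.383) did not pass, in fewer libraries and over a narrower range of the score. Tec passed in these 12 (r = 0.827, adjusted permutation p = 0.00547), so 4 of 10 members stood beside 26.7% of all genes. With each value taken relative to its genotype mean, r was 0.914 for Oscar, -0.867 for Blnk, -0.803 for Trem2, -0.666 for Fcer1g and -0.635 for Sirpb1a. With FLT3 ITD replicates 1 and 3 averaged into 1 library, these were 0.954, -0.823, -0.773, -0.611 and -0.793 in the same order. The permutations shuffled libraries without regard to genotype or to the closeness of these 2 replicates. Their p-values therefore do not count independent evidence.

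**Figure D3:**
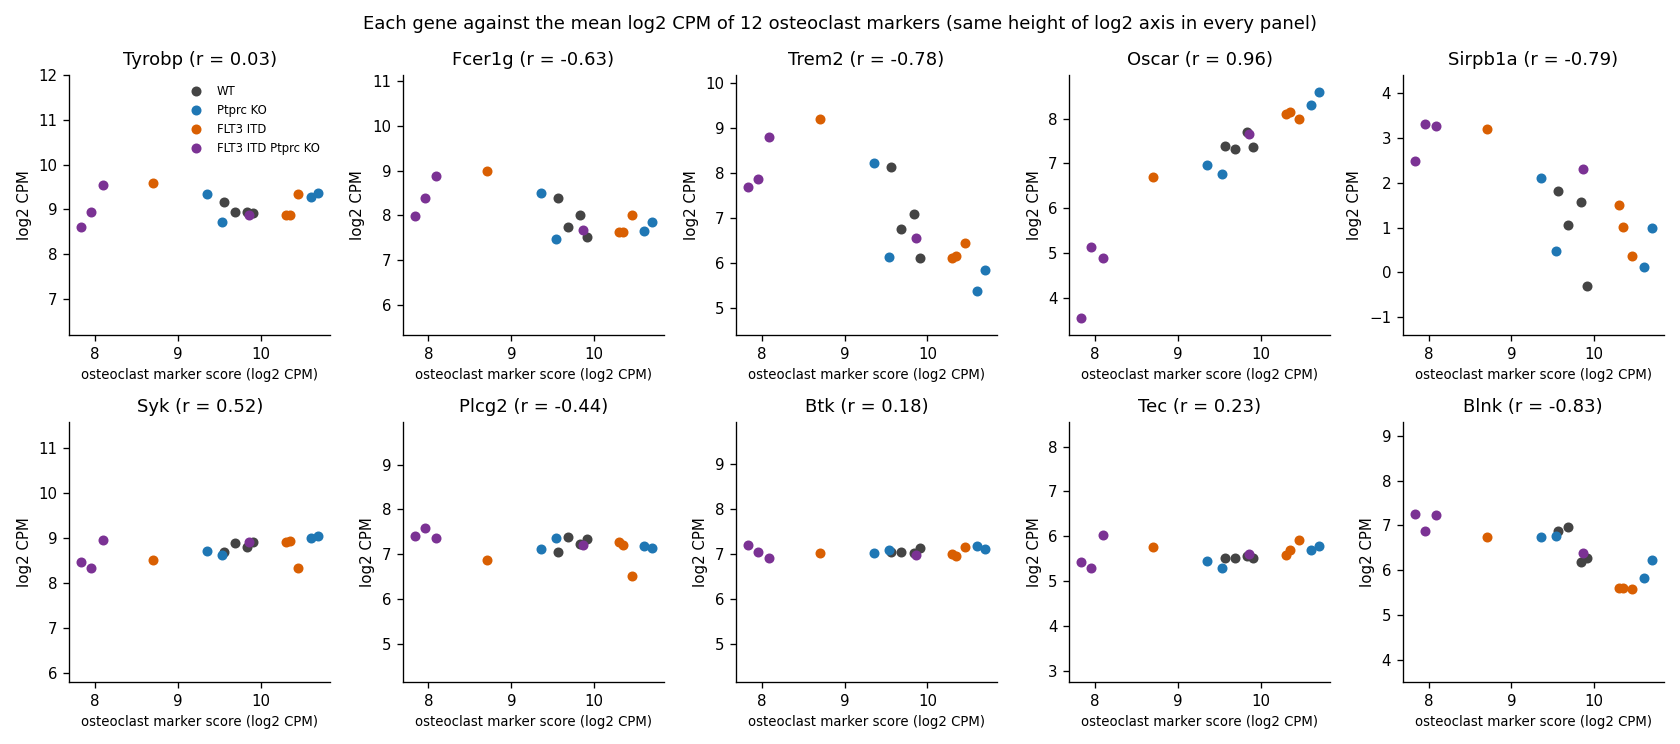
Each gene's log2 CPM (vertical axis, same height of scale in every panel) against the mean log2 CPM of 12 osteoclast markers (horizontal axis), 1 point per culture, coloured by genotype. Oscar climbs with the score (r = 0.956), Blnk, Sirpb1a, Trem2 and Fcer1g run against it, and Btk and Tyrobp are flat.

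The other cell types that could carry these genes were measured by marker lists. Macrophages also express Tyrobp, Fcer1g, Trem2 and Syk, and all 11 macrophage markers were detected, with summed levels of 2903 to 6163 CPM in WT, 2686 to 6406 CPM in Ptprc KO, 2940 to 6768 CPM in FLT3 ITD and 2780 to 7717 CPM in the double mutant. These sums are led by Csf1r and Cd68, and the list did not move as one. In FLT3 ITD against WT 7 of 11 markers were negative (median log2 fold change -0.53, 4 at an unadjusted p under 0.05). Vsig4, a complement receptor of resident macrophages, named after its values were seen, had 32 to 150 counts in WT and 48 to 98 in Ptprc KO, and 0 counts in all 8 cultures with FLT3 ITD. It was called lower by edgeR in FLT3 ITD against WT (adjusted p = 0.0436), in the double mutant against WT (adjusted p = 0.0265) and in the double mutant against Ptprc KO (adjusted p = 0.024). The culture with the highest sum in each group (WT replicate 3, Ptprc KO replicate 4, FLT3 ITD replicate 4 and double-mutant replicate 2) also had the highest Trem2 and Fcer1g of its group. The same 4 cultures had the highest neutrophil sums (170, 254, 291 and 203 CPM, led by Mmp8) and the highest megakaryocyte and platelet sums (167, 323, 255 and 181 CPM, led by Pf4, with Gp1bb and Gp9 at 0) of their groups. Of the neutrophil list, 7 of 8 tested markers were negative in the double mutant against WT (median log2 fold change -2.61), against Ptprc KO (median -3.63) and against FLT3 ITD (median -2.24), with none called. The part of these cells in the levels of Trem2 and Fcer1g was not tested. Dendritic cell markers summed to 62.2 to 434 CPM in the double mutant, 20.9 to 162 CPM in FLT3 ITD, 34.2 to 58.8 CPM in WT and 24.1 to 42.3 CPM in Ptprc KO, and their part was not tested either. Itgax led this sum (13.4 to 422 CPM over all libraries), and 4 of 5 tested dendritic cell markers were negative in the double mutant against FLT3 ITD (median -0.48).

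B cells use Syk, Btk, Blnk and Plcg2 as well, and their defining markers were near 0. Of 10 B cell markers, 8 stayed under 1 CPM in every library, with Cd79a at no more than 0.572 and Pax5 at no more than 0.286 CPM, while Cd22 ran from 0.433 to 15.3 CPM. The summed B cell level was 2.55 to 13.8 CPM in WT, 1.86 to 19.2 CPM in Ptprc KO, 0.736 to 15.5 CPM in FLT3 ITD and 1.5 to 14.6 CPM in the double mutant. Blnk stood at 47.7 CPM or more in every library. Levels of different genes do not give the share of Blnk RNA that came from B cells. The highest B cell sum of each group was in WT replicate 3, Ptprc KO replicate 4, FLT3 ITD replicate 4 and double-mutant replicate 2. Of 7 NK cell markers, 6 stayed under 1 CPM and Klra8 was at 0. The NK cell sums were highest in those same cultures, and the part of B and NK cells was not tested. Of 8 mast cell and basophil markers, which matter for Fcer1g, 6 stayed under 1 CPM and Fcer1a and Mcpt8 were at 0. Of 6 T cell markers, 5 stayed under 1 CPM, and Cd5 ran from 1.69 to 23.3 CPM.

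Levels between genes were compared per gene length, with the deposited TPM, which are not a plain transform of the deposited counts. Tyrobp stood highest at 2706 ± 366 TPM (mean and SD over all 16 libraries), followed by Fcer1g at 1026 ± 326 and Oscar at 315 ± 183 TPM. Syk followed at 156 ± 28.3, Btk at 141 ± 15.8, Plcg2 at 119 ± 26.9 and Trem2 at 117 ± 93.4 TPM. Blnk stood at 52.9 ± 21.6, Tec at 43.2 ± 4.15 and Sirpb1a at 5.53 ± 4.2 TPM. The adaptors thus stood above every receptor and kinase, and Tyrobp lay above 99.8% of all tested genes. Tyrobp exceeded Fcer1g, Fcer1g exceeded Oscar and Tec exceeded Sirpb1a in 16 of 16 libraries. The neighbours from Oscar to Tec kept their order in 10 to 14 of 16 libraries, and their SD ranges overlapped, with Plcg2 over Trem2 and Blnk over Tec in 10 each. TPM depend on the length the authors used, which for Trem2 was 4946 bases where its longest coding transcript has 1088. For Blnk these lengths were 5991 and 2097 bases, and for Syk 9362 and 5363 bases. Places in this order therefore move with that choice.

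**Figure D4:**
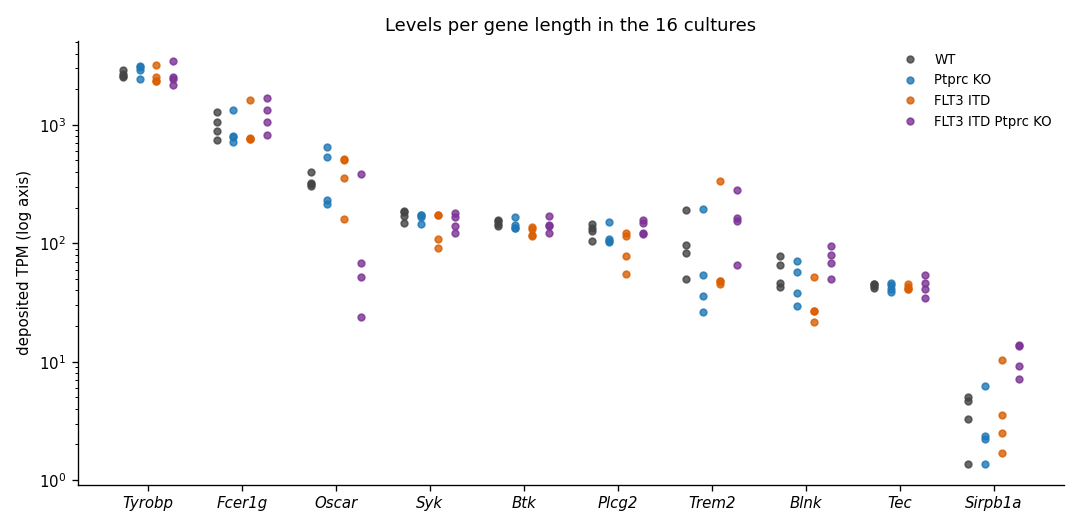
Deposited TPM (vertical log axis) of the 10 genes, ordered by their mean, with 1 point per culture, coloured by genotype. Tyrobp and Fcer1g lie above Oscar in every culture, and Sirpb1a lies lowest in the mean at 5.53 TPM.

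For each member the 3 genes with the most similar log2 CPM over the 16 libraries were found among tested genes with a mean of at least 5 CPM, by Pearson r, as a description. Trem2 ran closest to Cd48 (0.990), the lysozyme gene Lyz2 (0.990) and Cd300c2 (0.988). Fcer1g ran with the lysosomal protease gene Ctsd (0.983), Sfn (0.974) and Ppt2 (0.973). Oscar ran with the receptor kinase gene Mst1r (0.981), Steap4 (0.981) and the mitochondrial creatine kinase gene Ckmt1 (0.977). No gene was among the nearest of more than 1 of these 3 members. Sirpb1a ran with its sequence relatives Sirpb1c (0.976) and Sirpb1b (0.969), which can share its reads, and with Lair1 (0.945). Syk ran with Cpeb4 (0.954), Mbnl2 (0.950) and Pik3ca (0.947), and Plcg2 with Cep162 (0.957), Sptbn1 (0.953) and Anapc1 (0.949). Tyrobp ran with the interferon gamma receptor gene Ifngr2 (0.934), Gngt2 (0.921) and Lmbrd1 (0.916), and Blnk with Acin1 (0.920), Ints8 (0.920) and Plcb3 (0.918). Tec ran with Pisd (0.906), Tspan17 (0.887) and Bcl2a1a (0.866). Btk, whose range was narrow, had the least similar neighbours, Dync2i2 (0.855), Bcs1l (0.83) and Carnmt1 (0.790). Among the members themselves the closest pair was Fcer1g and Trem2 (0.929), ahead of the DAP12 partner of Trem2, Tyrobp (0.410 with Trem2). All these points share library and depth.

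The rest of the pathway was followed in 6 lists of genes, and no gene of them passed in any comparison. In the double mutant against FLT3 ITD, 52.0% of all genes had a positive log2 fold change and their median was 0.03. Of the other ITAM-coupled receptors 19 of 23 tested were positive (median 0.59, highest 1.31). Lowest in p were the paired immunoglobulin-like receptors Pira2 (0.75, SE 0.27, edgeR adjusted p = 0.131) and Pira6 (0.78, SE 0.32, edgeR adjusted p = 0.152). Of the inhibitory receptors and brakes 16 of 21 were positive (median 0.38). Csk, the kinase that places the inhibitory phosphate on Src-family kinases, stood at 0.35 (SE 0.11, edgeR adjusted p = 0.116) and the ubiquitin ligase gene Cblb at -0.88 (SE 0.31, edgeR adjusted p = 0.130). Src-family kinases were positive in 4 of 6 and negative in 2 (median 0.49, lowest -1.38), with Fyn at 0.90 (SE 0.38, edgeR adjusted p = 0.161). Src, the most abundant of them, went the other way. It stood at 402 ± 160 CPM in FLT3 ITD and 262 ± 146 CPM in the double mutant (SD, n = 4).

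The lists of other adaptors and effectors and of calcium and NFAT output lay nearer to all genes, while ligands and co-receptors did not. Other adaptors and effectors were positive in 13 of 21 (median 0.09), with Pik3cd, the leukocyte phosphoinositide 3-kinase gene, at 0.64 (SE 0.16, edgeR adjusted p = 0.105) and the exchange factor gene Vav2 at 0.81 (SE 0.25, edgeR adjusted p = 0.114). Pik3cd stood at 86.1 ± 21 CPM in FLT3 ITD and 134 ± 9.12 CPM in the double mutant (SD, n = 4), and its ranges of 59.3 to 105 and 128 to 148 CPM did not overlap. Its WT level was 121 ± 12.4 CPM (SD, n = 4). Genes of calcium and NFAT output were positive in 8 of 15 (median 0.04). Rcan1, a calcineurin inhibitor and NFAT target, stood at 155 ± 65.2 CPM in FLT3 ITD and 62.9 ± 14.7 CPM in the double mutant (SD, n = 4), a log2 fold change of -1.31 (SE 0.30, edgeR adjusted p = 0.104), and its ranges of 117 to 253 and 47.4 to 76.0 CPM did not overlap. Nfatc2 stood at 11.5 ± 4.91 and 35.4 ± 14.6 CPM (SD, n = 4), a log2 fold change of 1.62 (SE 0.43, edgeR adjusted p = 0.106). Pik3cd and Rcan1 were named for their low p-values in this comparison, so their separate ranges add no support. Of all genes, 8.47% had separate ranges here in either direction. Ligands and co-receptors were positive in 8 of 10 (median 0.63), with Plxna1, a partner of TREM2 and DAP12, at 1.05 (SE 0.47, edgeR adjusted p = 0.178) and its ligand gene Sema6d at 1.36 (SE 0.67, edgeR adjusted p = 0.213). Against WT this list was positive in 2 of 10 in FLT3 ITD (median -0.64, with 54.5% of all genes positive). In the double mutant against WT it was positive in 6 of 10 (median 0.096, with 56.3% of all genes). The counts and medians are a description of lists whose genes move with the same cultures. How far the length trends of FLT3 ITD replicates 2 and 4 enter the values of these lists was not tested.

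The comparison of the double mutant with Ptprc KO shares the double-mutant libraries with the one above. The other ITAM-coupled receptors were positive in 21 of 23 (median 1.11), where 54.4% of all genes were positive with a median of 0.04. Sirpb1c stood at 1.79 (SE 0.70, edgeR adjusted p = 0.254), and Siglec15, a DAP12-coupled receptor of osteoclasts, stood at -1.81 (SE 0.73, edgeR adjusted p = 0.255). Siglec15 was 1 of 2 receptors of the list with a negative value, as for Oscar. Rcan1 stood at -1.23 (SE 0.30, edgeR adjusted p = 0.121) and Cblb at -1.08 (SE 0.31, edgeR adjusted p = 0.180). In FLT3 ITD against WT the other ITAM-coupled receptors were positive in 17 of 23 (median 0.35, with 54.5% and 0.04 for all genes), and in Ptprc KO against WT in 5 of 23 (median -0.19, with 54.9% and 0.02 for all genes). In FLT3 ITD against WT, Pik3cd stood at -0.50 (SE 0.16), Vav2 at -0.73 (SE 0.25) and Pira2 at -0.61 (SE 0.27), each with an edgeR adjusted p of 0.590.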

How the data were processed

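Poly(A) RNA libraries with unique molecular identifiers were made from 16 mouse osteoclast cultures, per the labels' protocols. The submitters' processing notes name the build GRCm38.p6, the aligner STAR 2.7.6a, featureCounts 2.0.3 for counting, UMI-tools 1.1.1, cutadapt 4.2 and bcl2fastq 2.20.0.422. The authors deposited whole-number counts per gene and, in a second table, TPM per gene with a gene length; the treatment of multiply mapped reads was not stated.

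Genes with low counts were removed with filterByExpr, which left 12093 genes. Libraries were scaled by TMM, and edgeR 4.0.16 (R 4.3.3) fitted all 16 libraries with robust quasi-likelihood and 1 mean per genotype. Adjusted p-values are Benjamini-Hochberg over all tested genes, with a threshold of 0.05. The CPM given are counts scaled with TMM library sizes, and log2 CPM has a prior count of 2. Correlations have permutation p-values from 100000 resamples, adjusted over 12081 genes, the tested genes without the 12 osteoclast markers. DESeq2 1.42.0, limma 3.58.1 on log2(TPM + 1), a replicate block, other filters, FLT3 ITD replicates 1 and 3 summed and each library left out were alternatives. The adjustment of correlations over all genes and the reading in the 12 libraries with a score over 9 were added after seeing the data. The scripts were tested on simulated data.

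The members, gene lists and marker lists were chosen with earlier results of these data known. Of each pathway list the 2 genes with the lowest p-values in a comparison, among those with a group mean of at least 5 CPM, could be named, and those printed are taken from them. Of the marker lists the most abundant genes were named, and defining markers at or near 0 were added after their values were seen. For each member the 3 nearest genes with a mean of at least 5 CPM were named. Lilrb4a was left out, since its symbol stands for more than 1 gene identifier. Whether replicate numbers pair the cultures was not stated, and correlations between libraries did not decide it. Of 24 pairs with the same number, 14 had a correlation of deviations over 0.1, and the range was -0.738 to 0.909. The main fit did not use the numbers.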

Additional observations from a re-analysis of the deposited data

Results flagged for a closer look

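In 6 of 40 groups of 4 cultures (10 genes in 4 genotypes) the highest or lowest culture stood apart from the other 3 by Dixon's criterion on log2 CPM, where chance gives about 1 in 20. Of these, 3 fall on FLT3 ITD replicate 4. There Trem2 stood at 587 CPM, against 69.4 to 87.0 CPM in the other 3 cultures, Oscar at 103 CPM, against 255 to 285 CPM, and Blnk at 107 CPM, against 47.7 to 48.6 CPM. This culture also had the lowest osteoclast marker score of its group, 8.70. The other 3 include replicates 1 and 3, which are close to each other over all genes. Tyrobp stood at 576 CPM in WT replicate 3, against 482 to 494 CPM in the other WT cultures, and at 424 CPM in Ptprc KO replicate 1, against 621 to 658 CPM. Tec stood at 46.9 CPM in WT replicate 4, against 45.6 to 45.7 CPM, a small difference that is marked because the other 3 are so close.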

How the results depend on the processing

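The count of 0 called members held in FLT3 ITD against WT, Ptprc KO against WT and the test for any difference under every alternative run. In the double mutant against FLT3 ITD, DESeq2 called 1 member, and leaving out 1 library at a time gave 0 to 2; in the double mutant against Ptprc KO, against WT and in the interaction it gave 0 to 1. No called value changed sign, since none was called; of 1490 log2 fold changes of members under alternatives, 72 changed sign and 8 newly passed, all named in the report. Counts over all genes moved more: for the double mutant against FLT3 ITD, 1 gene with edgeR, 984 with DESeq2 and up to 1798 without FLT3 ITD replicate 4, and against Ptprc KO 11, 332 and up to 786 without double-mutant replicate 3. Over all alternatives the counts ran from 0 to 60 in FLT3 ITD against WT (main 5), 1 to 11 in Ptprc KO against WT (main 4), 1 to 117 in the double mutant against WT (main 13), 0 to 165 in the interaction (main 1) and 6 to 456 for any difference (main 27), each highest with DESeq2. On log2(TPM + 1) the median of all genes shifted by -0.21 in FLT3 ITD against WT and 0.22 in the double mutant against FLT3 ITD, so fold changes from TPM are read relative to it. Depth is thinnest for Sirpb1a, with 27 to 322 counts per library.

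With the replicate number as a block, edgeR called 0 members in every test, and 47 genes of all in the double mutant against Ptprc KO (11 without it). The numbers share no stated source, and 8 of 16 libraries correlated best with their own number, which does not decide whether the cultures were paired.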
